A study of Mus musculus with 4 samples.

Results

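Axon guidance molecules are cell surface and secreted proteins that steer growing nerve fibres, and many of them also act in blood vessels, muscle and immune cells. The genes described here are the semaphorins and their plexin and neuropilin receptors, the ephrins and their Eph receptor tyrosine kinases, the Slit and Robo pair, and the netrins with the receptors Dcc and Unc5. They were chosen by symbol alone, as probe sets whose single gene symbol begins with Sema and a digit, Plxn, Epha, Ephb, Efna, Efnb, Slit, Robo, Ntn or Unc5, or is Nrp1, Nrp2 or Dcc. This gave 58 probe sets for 45 genes, of 12422 probe sets without controls and 8251 genes with a name of their own in the table. One of them, Unc50, shares only the prefix, encodes no netrin receptor and is left out of every family below. No Slit gene was among the named probe sets.

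RNA came from murine skeletal muscle and was read on 4 arrays, 1 per sample. The titles code 2 samples as J (1a and 1c) and 2 as NJ (1a and 1d), all at 0 h and all with the tag Ctr, in a series named for the neuromuscular junction, the synapse of motor nerve and muscle fibre. The codes are not spelled out in the labels, and they name no strain, age or sex and no way of taking the tissue. Separate animals are not stated either, so p-values measure only the spread between these samples, which may be technical.

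Semaphorins bind plexins, and the secreted class of semaphorins does so through the neuropilins as co-receptors. Ephrins of class A are anchored to the membrane by a lipid and mainly bind EphA receptors, while those of class B span the membrane and mainly bind EphB receptors, and both sides of the contact can signal. Netrins attract through Dcc and repel through Unc5 receptors, and Slits repel through Robo receptors. In developing limbs, ephrins and Eph receptors help motor axons choose and sort within their target muscles.

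Below, signals are linear intensities as deposited, given per array, always J 1a before J 1c and NJ 1a before NJ 1d. Differences are log2(signal + 32) of quantile normalised arrays, J minus NJ, ± the standard error from limma with 2 arrays in each group, on a scale that understates changes of dim genes. Brightness depends on a probe set's own sequences, so no level of one gene is set against that of another, and fewer cells of a type cannot be told apart from less RNA per cell. Probe sets were tested where their mean over the 4 arrays exceeded the 25th percentile, which corresponds to a signal of 116.7. Of the 58 probe sets 42 were tested, for 34 of the 45 genes.

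The arrays differed in ways the groups do not explain. Array J 1c had the lowest summed deposited signal of 10 skeletal muscle markers, 178575, against 955615 on J 1a and 756114 and 603304 on NJ 1a and NJ 1d. Every one of these markers was above 0 on every array. The highest deposited signal of any probe set was also lowest on J 1c, 41090, against 231900 on J 1a, 184200 on NJ 1a and 125500 on NJ 1d. The sum rests on the brightest genes, and whether J 1c held less muscle RNA was not tested. Values of J 1a and NJ 1a have full digits and those of J 1c and NJ 1d have 1 decimal, so each number format takes in 1 array of either group, and it cannot be told apart from the replicate label. The difference in the full-digit arrays is J 1a minus NJ 1a, and that in the 1-decimal arrays is J 1c minus NJ 1d. Over all 9316 tested probe sets the difference of J 1a minus NJ 1a had a Pearson correlation of 0.002 with that of J 1c minus NJ 1d, and the sign was the same in 49.4% of them. The median absolute difference was 0.72 between the J arrays and 0.57 between the NJ arrays, against 0.39 between the group means. Values within each number format are therefore given beside several of the results.

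No guidance gene passed the test. With limma and Benjamini-Hochberg adjustment over all tested probe sets, 0 of 42 members had an adjusted p under 0.05 (background 0%), and each member's adjusted p was 0.9998. At an unadjusted p under 0.05 limma gave 0 of 42 members, against 2.13% of all tested probe sets. Of the 42 members 20 had a difference above 0, or 47.6%, against 49.2% of all tested, and the median difference was −0.04 against −0.01. Both J arrays were above both NJ arrays for 6 members (14.3%, background 13.6%) and below them for 4 (9.52%, background 12.9%), together 23.8% against a background of 26.5%. These shares are near the background. With the arrays centred on their medians in place of quantile normalisation the counts were 9 above (background 12.3%) and 2 below (background 13.1%), so the split between the directions depends on the scaling. With 2 arrays a group, the smallest two-sided p of an exact permutation test is 0.333. A term for the number format brought 0 members past an adjusted p of 0.05 in limma (background 0.0859%) and 1, a Sema4b probe set, below an unadjusted p of 0.05 (background 5.96%).

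**Figure D1:**
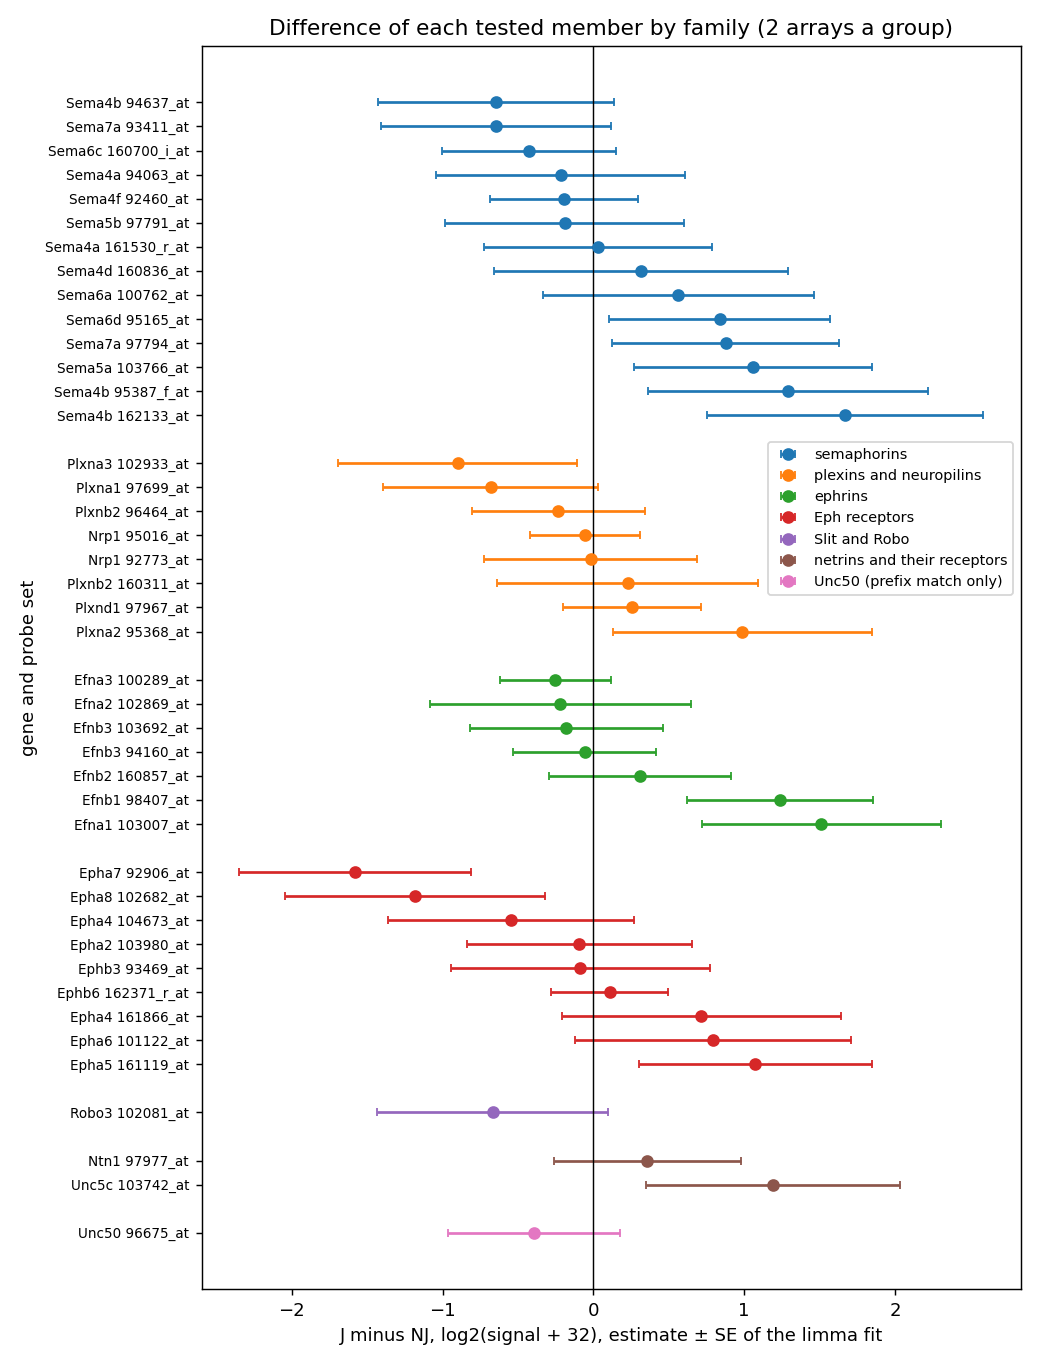
Each point is 1 of the 42 tested probe sets, placed by its difference of J minus NJ on the log2(signal + 32) scale, with bars for ± 1 standard error from limma with 2 arrays in each group and colours for the families. Within the semaphorins, the plexins and neuropilins, the ephrins and the Eph receptors, points lie on both sides of 0, from −1.58 for Epha7 to 1.67 for Sema4b.

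The level of each family was followed across arrays as the median deposited signal of its tested probe sets, beside that of all probe sets, which was 375.5 on J 1a, 300.4 on J 1c, 366.3 on NJ 1a and 280.2 on NJ 1d. The ephrin median was 750 and 608.5 on the J arrays (1a, then 1c) and 523.6 and 374.7 on the NJ arrays (1a, then 1d). The semaphorin median was 419.9 and 469.4 on the J arrays and 337.1 and 287.2 on the NJ arrays. Both were thus higher on the J arrays, although the median over each probe set's own difference was −0.06 for the ephrins and 0.17 for the semaphorins. The plexin and neuropilin median was 434.6 and 690.4 on the J arrays and 564.2 and 783.2 on the NJ arrays, with overlap. The Eph receptor median was 393.3 on J 1a, 113 on J 1c, 258.6 on NJ 1a and 289.2 on NJ 1d, so that J 1c was the low array and J 1a the high one. The few probe sets of the Robo and netrin families are given singly.

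The ephrins, the ligands of Eph receptors, held 2 of the 6 members that were higher on both J arrays and 2 of the 4 that were lower. Together these were 4 of the 7 tested ephrin probe sets (57.1%, background 26.5%). The 2 lower ones, of Efna3 and Efnb3, overlapped between the groups as deposited. Efna1, which encodes ephrin-A1, had signals of 488.4 and 331.7 on the J arrays and 91.55 and 142.1 on the NJ arrays. Its J values lay above both NJ values, and the difference was 1.51 ± 0.79, with 2.09 in the full-digit arrays and 0.93 in the 1-decimal arrays. Efnb1, the membrane-spanning ephrin-B1, had signals of 1323 and 673.6 on the J arrays and 412.2 and 341.9 on the NJ arrays. Both NJ arrays were alike and both J arrays were higher, by 1.24 ± 0.62 on average, with 1.71 in the full-digit arrays and 0.76 in the 1-decimal arrays. With each array left out in turn the difference ranged from 1.08 to 1.94 for Efna1 and from 0.82 to 1.64 for Efnb1. Where groups are apart, the sign within each number format is fixed, and that with 1 array left out nearly so. Neither passed the test, with limma unadjusted p of 0.087 and 0.075 and adjusted p of 0.9998.

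The remaining ephrins had differences smaller than their standard errors. Efna3, ephrin-A3, had signals of 2437 and 3296 on the J arrays and 3109 and 3792 on the NJ arrays, which overlap as deposited. After normalisation both J values lay just below both NJ values, at −0.25 ± 0.37. Efnb3, ephrin-B3, had at its brighter probe set signals of 998.9 and 966.7 on the J arrays and 1027 and 965.4 on the NJ arrays, a difference of −0.06 ± 0.47, and its other probe set gave −0.18 ± 0.64. Efnb2, an ephrin known from arteries, differed by 0.31 ± 0.60 and Efna2 by −0.22 ± 0.87, with overlapping groups. The 7 tested ephrin probe sets had 3 differences above 0 and 4 below, with a median of −0.06. That median was 0.13 with the brightest probe set of each gene and 0.10 with the mean of each gene's probe sets. In 6 of the 7 the sign was the same within both number formats (85.7%, background 49.4%). For 4 of the 7 it had to be the same, because their groups were apart. Efna4 and Efna5 were too dim to test.

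The Eph receptors were split. Epha7, a receptor of class A ephrins, had signals of 82.17 and 103.2 on the J arrays and 350.0 and 295.6 on the NJ arrays. The arrays of each group were alike and both J arrays were lower, with a difference of −1.58 ± 0.77 that was −1.82 in the full-digit arrays and −1.34 in the 1-decimal arrays. It had the smallest unadjusted p of the members in limma, 0.069. A second Epha7 probe set, too dim to test, had signals of 65.39 and 24.5 on the J arrays and 49.00 and 15.2 on the NJ arrays and a difference of 0.21. Epha5 had signals of 347.3 and 178.2 on the J arrays and 89.17 and 105.7 on the NJ arrays, both J values above both NJ values, and a difference of 1.07 ± 0.77. Its second probe set was below the filter, with 373.9 on J 1a but 24.9 on J 1c, and 75.80 and 59.7 in NJ.

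Epha8 differed by −1.18 ± 0.86, and its signals of 472.8 and 82.6 on the J arrays overlapped the 691.5 and 338.0 of the NJ arrays. Epha4, a receptor of both ephrin classes that is known from motor axon choice in the limb, gave opposite signs at its tested probe sets. The brighter one had signals of 366.9 and 98.8 on the J arrays and 324.6 and 258.6 on the NJ arrays (−0.54 ± 0.82), the other 493.4 and 53.3 on the J arrays and 135.3 and 59.2 on the NJ arrays (0.72 ± 0.92). At both it was the J 1a array that stood highest and the J 1c array that stood lowest. Ephb6, a receptor that lacks kinase activity, had signals of 3571 and 2847 on the J arrays and 3336 and 2609 on the NJ arrays at its brighter probe set, a difference of 0.11 ± 0.39. Its other probe set was too dim to test, with 173.0 and 89.5 on the J arrays and 89.14 and 66.2 on the NJ arrays. Epha2, Epha6 and Ephb3 overlapped between groups, at −0.09 ± 0.75, 0.79 ± 0.91 and −0.09 ± 0.86. The 9 tested receptor probe sets had 4 differences above 0 and 5 below, a median of −0.09, and medians of 0.14 in the full-digit arrays and −0.30 in the 1-decimal arrays. None of the 9 was highest on J 1c (0%, background 21.8%) and 5 were highest on J 1a (55.6%, background 30.8%). J 1a was also highest for 50% of the plexin and neuropilin probe sets and 42.9% each of the semaphorins and ephrins.

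**Figure D2:**
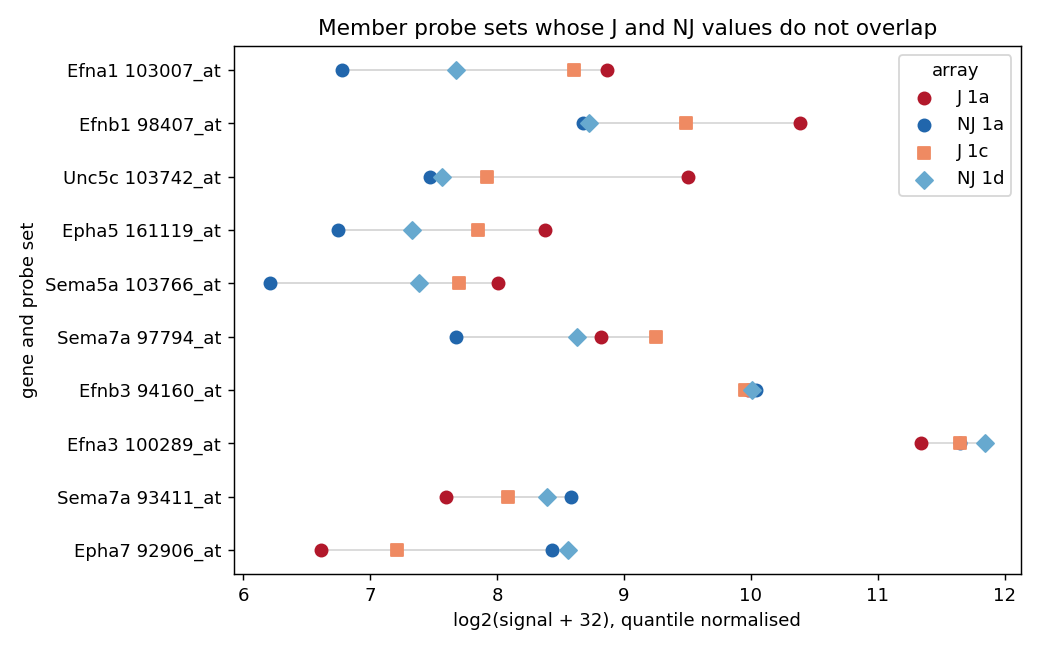
The 10 tested probe sets, for 9 genes, whose J values (red circle and orange square) do not overlap their NJ values (dark and light blue) are drawn on the log2(signal + 32) scale after quantile normalisation, 1 symbol per array. In 6 rows the J symbols lie to the right and in 4 to the left, and for Efnb3 and Efna3 the gaps are small, with differences of −0.06 and −0.25.

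Among the semaphorins, 14 of 15 probe sets of the membrane-bound classes were bright enough to test, Sema6b being the exception, and 0 of the secreted class were. All 6 probe sets of the secreted class, for Sema3a, Sema3b, Sema3c, Sema3e and Sema3f, were below the filter, with signals from 14.47 to 285.3. The 14 tested probe sets, of classes 4 to 7, had 8 differences above 0 and 6 below, with a median of 0.17. That median was 0.39 in the full-digit arrays and −0.21 in the 1-decimal arrays, and it was −0.19 when only probe sets above the median brightness were kept. The direction of the family thus changed with the number format and the filter.

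Sema5a, a semaphorin with thrombospondin repeats, had signals of 264.0 and 156.5 on the J arrays and 52.54 and 110.6 on the NJ arrays. Both J arrays were the higher, with a difference of 1.06 ± 0.79 that was 1.80 in the full-digit arrays and 0.32 in the 1-decimal arrays. Sema7a, a lipid-anchored semaphorin that signals through integrins, had 2 probe sets whose groups were apart in opposite directions. The brighter one had signals of 469.3 and 555.5 on the J arrays and 198.7 and 313.8 on the NJ arrays, a difference of 0.88 ± 0.75. The dimmer one had 190.1 and 216.1 on the J arrays and 389.9 and 260.7 on the NJ arrays, a difference of −0.65 ± 0.76. No direction can be given for the gene from these probe sets.

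Sema4b, a membrane-bound semaphorin, had the largest difference of any member at its brightest probe set, 1.67 ± 0.92. The signals there were 1090 and 599.4 on the J arrays and 653.9 and 57.4 on the NJ arrays, so that the groups overlapped and NJ 1d was the low array. The difference was 0.74 in the full-digit arrays and 2.60 in the 1-decimal arrays, and was 0.35 without NJ 1d. Its next probe set had 190.1 and 501.9 on the J arrays and 542.1 and 397.3 on the NJ arrays and differed by −0.65 ± 0.78, and the dimmest differed by 1.29 ± 0.93. The latter bears the suffix of probe sets that can read related sequences, and its signals were 370.4 and 167.3 on the J arrays and 26.47 and 181.5 on the NJ arrays. Sema4a had 230.7 and 529.8 on the J arrays and 284.3 and 558.8 on the NJ arrays at its brighter probe set, a difference of −0.22 ± 0.82. Its other one had 303.9 and 437.0 on the J arrays and 475.5 and 220.7 on the NJ arrays, a difference of 0.03 ± 0.76, and the groups overlapped at both. Sema4f, also bound to the membrane, had signals of 1513 and 820.0 on the J arrays and 1430 and 1082 on the NJ arrays, a difference of −0.19 ± 0.49. Sema4d, Sema5b and Sema6c overlapped between groups, at 0.32 ± 0.98, −0.19 ± 0.79 and −0.43 ± 0.58. Sema6a and Sema6d differed by 0.56 ± 0.90 and 0.84 ± 0.73, both with a high value on J 1a, 784.1 and 889.3, against 135.2 and 504.5 on J 1c.

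After normalisation the groups overlapped for every tested semaphorin receptor, so that 0 of 8 probe sets were apart (0%, background 26.5%). The share apart was 21.4% for the semaphorins and 22.2% for the Eph receptors. Nrp1, the co-receptor neuropilin-1 that also binds the vascular growth factor VEGF, had signals of 4339 and 3626 on the J arrays and 4105 and 4415 on the NJ arrays at its brighter probe set. The 4 arrays lay close together, with a difference of −0.05 ± 0.36, and the second probe set gave −0.02 ± 0.71. Plxnd1, a plexin of endothelium, differed by 0.26 ± 0.46, and its signals were 2321 and 1364 on the J arrays and 1668 and 1264 on the NJ arrays. Among the class A plexins, which pair with neuropilins, Plxna1 differed by −0.68 ± 0.71, Plxna2 by 0.99 ± 0.86 and Plxna3 by −0.90 ± 0.79. As deposited, Plxna1 was lower on both J arrays, with 312.1 and 376.8 on them and 427.8 and 721.5 on the NJ arrays. The signals of Plxna2 were 446.1 and 125.6 on the J arrays and 70.83 and 147.3 on the NJ arrays, and those of Plxna3 188.7 and 762.1 on the J arrays and 661.8 and 730.7 on the NJ arrays. J 1a was the high array and NJ 1a the low one for Plxna2, and J 1a was the low array for Plxna3. Plxnb2, a receptor of class 4 semaphorins, gave −0.23 ± 0.57 and 0.23 ± 0.87 at its 2 probe sets. The brighter one had signals of 1321 and 507.9 on the J arrays and 1115 and 835.8 on the NJ arrays, and the other 176.5 and 618.6 on the J arrays and 348.6 and 187.4 on the NJ arrays. Of the 8 probe sets 3 were above 0 and 5 below, with a median of −0.04.

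Of the netrin system, Unc5c, a receptor for repulsion by netrin, had signals of 731.1 and 188.4 on the J arrays and 168.5 and 129.8 on the NJ arrays. Both J values were the higher, J 1c by a small margin, with a difference of 1.19 ± 0.84 that was 2.03 in the full-digit arrays and 0.35 in the 1-decimal arrays. Without J 1a it was 0.40. Ntn1, netrin-1 itself, had signals of 897.6 and 675.7 on the J arrays and 920.2 and 342.6 on the NJ arrays, a difference of 0.36 ± 0.62 with overlapping groups. Dcc, the receptor for attraction, was too dim to test, with 90.11 and 44.2 on the J arrays and 79.72 and 183.9 on the NJ arrays. The median of the 2 tested probe sets of this family was 0.77. Robo3, a divergent receptor of the Robo family, differed by −0.67 ± 0.77, and its signals were 534.5 and 187.9 on the J arrays and 806.3 and 301.6 on the NJ arrays. Its difference was −0.67 within each number format, while the arrays of each group differed by more than that from each other. Robo1, a Slit receptor, was too dim to test.

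**Figure D3:**
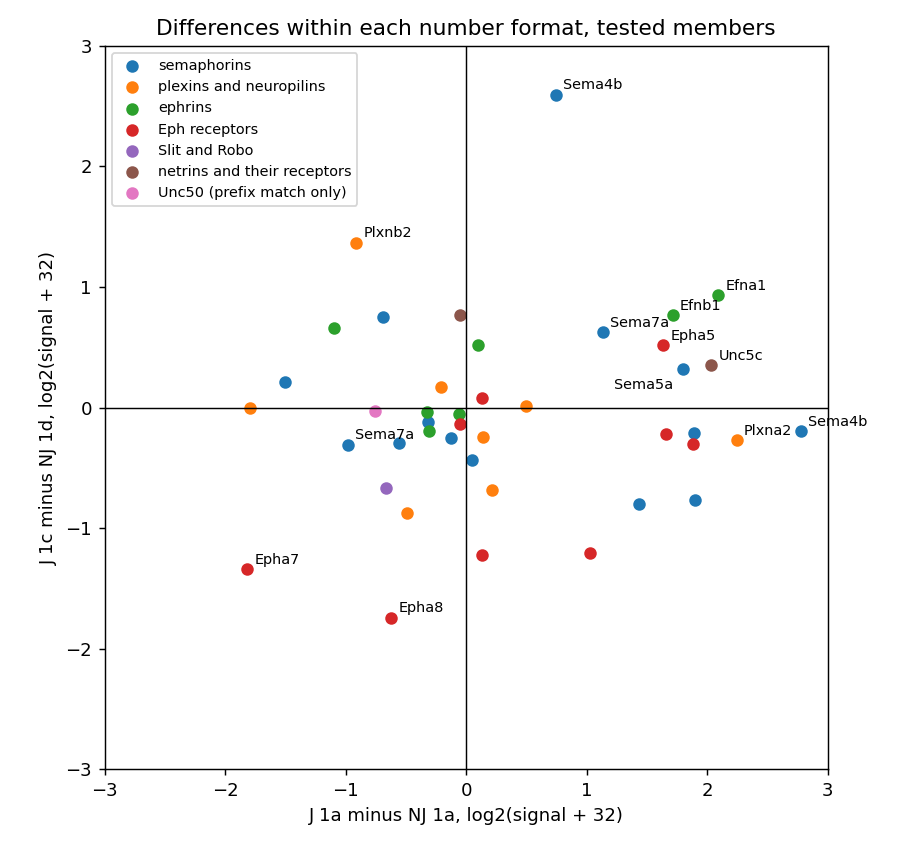
Each of the 42 tested probe sets is placed by its difference J 1a minus NJ 1a (horizontal axis) and J 1c minus NJ 1d (vertical axis), both on the log2(signal + 32) scale, and coloured by family. Points lie in all 4 quadrants. Those at the upper right include Efna1, Efnb1, Epha5, Sema5a, Unc5c, the brightest Sema4b probe set and 1 Sema7a probe set. Those at the lower left include Epha7, Epha8 and the other Sema7a probe set.

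Across the 42 members the sign was the same within both number formats for 24, or 57.1%, against 49.4% of all tested. The Pearson correlation of the within-format differences was 0.11 across the 42 probe sets, which share arrays and, for some, a gene. The median absolute difference was 0.75 in the full-digit arrays and 0.34 in the 1-decimal arrays. J 1a was the highest array for 19 members, or 45.2% (background 30.8%). NJ 1d was highest for 10 (23.8%, background 20.6%), NJ 1a for 7 (16.7%, background 26.7%) and J 1c for 6 (14.3%, background 21.8%). The median absolute difference between the J arrays was 0.76 for the members, larger than the 0.49 between group means.

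Probe sets of one gene often disagreed. Of 12 member genes with several probe sets, 7 had differences of both signs (58.3%), and the share was 54.4% of 2073 genes over all probe sets. Over tested probe sets alone it was 5 of 7 member genes (71.4%) against 52.1% of 1304 genes. The 7 of the wider count were Epha4, Epha7, Plxnb2, Sema3b, Sema4a, Sema4b and Sema7a, and both probe sets of Sema3b were too dim to test. They gave 64.17 and 100.7 on the J arrays and 93.84 and 100.5 on the NJ arrays at one, and 150.9 and 39.9 on the J arrays and 14.47 and 107.7 on the NJ arrays at the other. The genes whose probe sets had 1 sign were Efnb3 and Nrp1, below 0, and Epha5, Ephb6 and Ntn1, above 0.

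**Figure D4:**
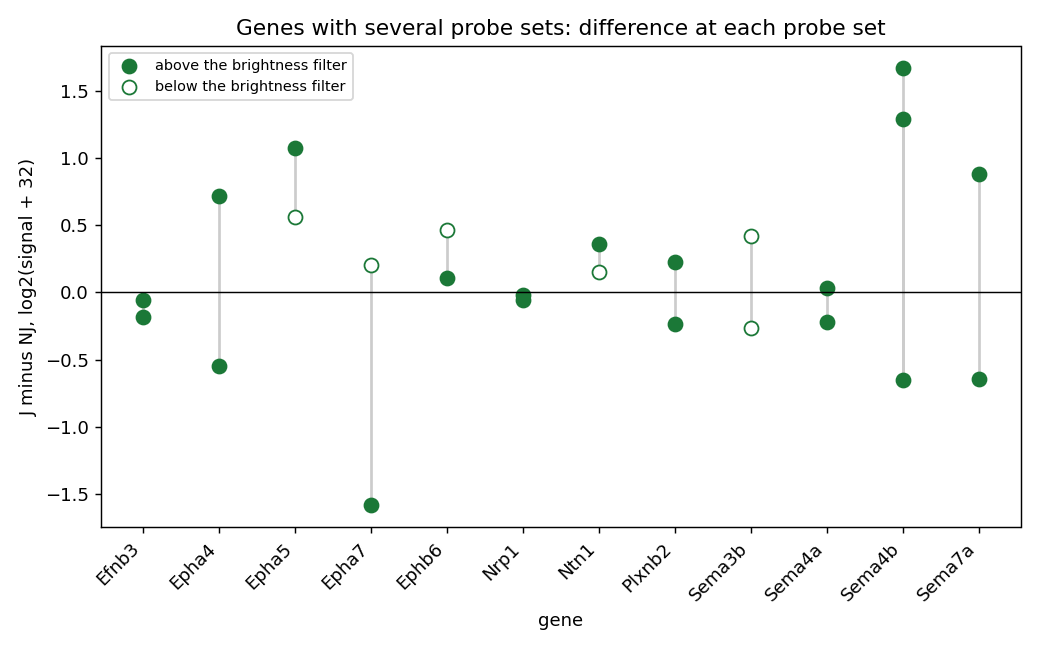
Each column is 1 of the 12 member genes with several probe sets, and each symbol 1 probe set, placed by its difference of J minus NJ on the log2(signal + 32) scale, filled where tested and open where too dim. In 7 columns the symbols lie on both sides of 0, widest apart for Sema4b, at 1.67 and −0.65, and for Epha7, at 0.21 and −1.58.

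The 16 member probe sets below the filter, of 15 genes, had differences from −0.82 to 0.60. Of these, 11 genes had no probe set above it, namely Dcc, Efna4, Efna5, Epha3, Robo1, Sema6b and the 5 secreted semaphorins. After normalisation the groups were apart for 4 of the 16 (25%, against 27.3% of all probe sets with no filter), higher in J for Efna4 and the dimmer Ephb6 probe set and lower for Robo1 and Sema3a. Of these the Ephb6 probe set alone was also apart as deposited, with 173.0 and 89.5 on the J arrays and 89.14 and 66.2 on the NJ arrays.

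Genes that act with or downstream of these receptors were taken from a list of 64, of which 37 had a probe set and 35 were tested at their brightest one. Of the 35, 17 had a difference above 0 and 18 below, with a median of −0.11, and 0 passed limma at an adjusted p under 0.05. Itsn1, the scaffold and exchange factor intersectin that acts downstream of EphB receptors in neurons, had signals of 1513 and 2904 on the J arrays and 4399 and 4726 on the NJ arrays and a difference of −1.13 ± 0.41. Src, a kinase downstream of Eph receptors and many others, differed by −1.67 ± 0.78 and Dpysl3, a collapsin response protein of the semaphorin pathway, by −1.45 ± 0.80, with both J values below both NJ values. Ablim1, an actin-binding protein, differed by −1.53, with −3.30 in the full-digit arrays and 0.25 in the 1-decimal arrays. In the other direction, Fyn, a kinase of the Src family, had signals of 539.1 and 344.4 on the J arrays and 224.6 and 73.9 on the NJ arrays and a difference of 1.43 ± 0.79. The kinases Rock1 and Limk2, which act on the actin skeleton, differed by 0.92 ± 0.79 and 0.86 ± 0.79, and the GTPase Rac1 by 0.38 ± 0.36. The difference of Limk2 was 1.89 in the full-digit arrays and −0.17 in the 1-decimal arrays.

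Promoter sequence is shown for Efna1, Efnb1 and Epha7, the members with the smallest unadjusted p whose groups were apart, and for Sema4b, which had the largest difference. The 250 bases before the annotated start, from RefSeq on GRCm38.p6, were searched on both strands for the N-box, CCGGAA, a motif known from genes expressed at the muscle synapse, and for the E-box, CANNTG, the motif of muscle transcription factors. Where a gene had several starts, the one farthest upstream is shown. The windows are chr3:89280952-89281201 on the minus strand for Efna1, chrX:99135811-99136060 on the plus strand for Efnb1, chr4:28812881-28813130 on the plus strand for Epha7 and chr7:80186620-80186869 on the plus strand for Sema4b. Sequences run 5′ to 3′ on the gene's strand, and capitals mark the N-box, here in its reverse complement.
Efna1: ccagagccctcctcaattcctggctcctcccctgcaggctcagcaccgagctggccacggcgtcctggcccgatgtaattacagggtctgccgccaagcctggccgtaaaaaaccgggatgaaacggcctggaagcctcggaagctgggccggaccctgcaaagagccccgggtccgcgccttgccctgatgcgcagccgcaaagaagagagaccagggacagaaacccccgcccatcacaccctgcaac
Efnb1: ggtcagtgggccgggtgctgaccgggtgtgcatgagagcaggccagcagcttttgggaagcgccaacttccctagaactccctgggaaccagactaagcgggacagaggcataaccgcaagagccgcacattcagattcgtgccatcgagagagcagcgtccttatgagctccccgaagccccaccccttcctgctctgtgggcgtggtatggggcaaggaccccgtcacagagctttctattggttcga
Epha7: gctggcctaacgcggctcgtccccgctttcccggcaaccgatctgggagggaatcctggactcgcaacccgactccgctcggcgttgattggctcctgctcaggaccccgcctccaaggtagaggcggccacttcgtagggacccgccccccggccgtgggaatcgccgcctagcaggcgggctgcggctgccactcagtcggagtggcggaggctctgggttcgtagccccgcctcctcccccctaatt
Sema4b: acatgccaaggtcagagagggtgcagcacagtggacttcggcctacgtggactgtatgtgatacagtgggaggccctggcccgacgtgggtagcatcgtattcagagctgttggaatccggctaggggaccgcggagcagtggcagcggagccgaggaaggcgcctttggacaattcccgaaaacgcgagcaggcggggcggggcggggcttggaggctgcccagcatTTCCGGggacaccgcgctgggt
The N-box was found in the Sema4b window, beginning at position −22 from the start, and not in those of Efna1, Efnb1 and Epha7. None of these 4 windows held an E-box. The window at the other Sema4b start, chr7:80198338-80198587, held 1 E-box and 0 N-boxes, so the result for this gene depends on the start shown. The other windows of Efna1 and Epha7 held neither motif. Promoter windows were matched for 38 of the 45 genes. Of 51 member windows 4 held an N-box (7.84%, against 12% of all 32851 windows) and 21 an E-box (41.2%, against 66.2%). The N-box windows belonged to Ephb6, Sema4a, Sema4b and Unc50. A match describes letters and no binding.

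Markers of other cell types were read on the same arrays at each gene's brightest probe set, and their sums are given as J 1a, J 1c and NJ 1a, NJ 1d. Of 8 smooth muscle and pericyte markers all 8 had differences above 0, with a median of 0.46 and summed signals of 15649 and 12228 over the J arrays against 12436 and 10008 over the NJ arrays. One of them, Des (desmin), is also abundant in skeletal muscle fibres, so the list does not mark its cell types alone. Des had the highest signal of the 8 on every array, 6236 and 4958 on the J arrays and 3870 and 5870 on the NJ arrays. Of 10 fibroblast markers 8 were above 0, with a median of 0.36 and sums of 114288 and 46380 over the J arrays against 64054 and 54437 over the NJ arrays. These sums mainly follow 1 gene, Dcn, with 82870 and 25300 on the J arrays and 42420 and 36130 on the NJ arrays. Of 8 tested endothelial markers 3 were above 0, with a median of −0.13 and sums of 13123 and 9512 over the J arrays against 10986 and 10527 over the NJ arrays. Of 7 tested neuron and axon markers 2 were above 0 (median −0.15, sums of 7346 and 3657 over the J arrays against 4671 and 4315 over the NJ arrays). Of 6 Schwann cell markers 1 was above 0 (median −0.29, sums of 3503 and 3300 over the J arrays against 5017 and 2752 over the NJ arrays), and of 7 tested immune markers 5 were (median 0.05, sums of 2956 and 2751 over the J arrays against 3368 and 2997 over the NJ arrays). Of 9 tested skeletal muscle markers 3 were above 0, with a median of −0.15. Over all tested probe sets 49.2% were above 0. The sign of the median turned between the full-digit and the 1-decimal arrays for several lists. It was 0.58 and −0.35 for neuron and axon, and −0.92 and 0.07 for Schwann cell. For skeletal muscle it was 0.14 and −0.25, and for immune cells 0.13 and −0.06. The other lists kept 1 sign. No marker of these lists was at 0 on any array, and 0 passed limma at an adjusted p under 0.05. The sums overlapped between the groups in every list except that of immune cells, where both J sums were the lower, and the part of these cell types in the values of the guidance genes was not tested.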

How the data were processed

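The deposited table holds 1 linear intensity per probe set and array, made by the authors with software not given in the sources used here. From the values, the mean of each array after trimming 2% at each end was 800.52 to 800.64, so arrays had been scaled to a common level before deposit. Of 12488 probe sets 66 were controls and left out. Of the rest, 10833 had 1 gene symbol in the platform's gene table, 396 had several and 1193 were unnamed, and all 58 members had a RefSeq entry.

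Intensities were taken as log2(value + 32). Array medians ran from 8.29 to 8.67, so the arrays were quantile normalised, and J was set against NJ at 9316 probe sets in R 4.3.3 with limma 3.58.1, using lmFit and a trended eBayes with 2 residual degrees of freedom. The scripts were tested on simulated data. Python 3.11.15 and matplotlib 3.10.9 made the figures. The number of arrays limits the precision, and the files hold no detection calls.

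The members and lists were chosen with earlier results of these data known. Values on every array are given for tested members whose groups are apart, for the largest difference and the brightest probe set of each family, for genes whose probe sets differ in sign, and for some further members. Of the downstream list, the 4 genes per direction with the smallest unadjusted p are named. Alternatives were the deposited scale, median centring, pseudocounts of 1 and 100, no filter or one at the median, no trend, a number-format term, each array left out, and 1 value a gene.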

Additional observations from a re-analysis of the deposited data

How the results depend on the processing

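No paired analysis was possible because the groups share only replicate label 1a. The number-format term sets J 1a with NJ 1a and J 1c with NJ 1d, and is a block by format, not by replicate number. Called probe sets over the whole array numbered 8 with the number-format term and 0 to 4 with each array left out, and members called numbered 0 in every alternative. Members below an unadjusted p of 0.05 in limma numbered 2 without the intensity trend (Efna1 and Epha7, background 2.75%), 1 with the number-format term and 0 to 2 with each array left out (background 1.01% to 9.39%). With the filter at the median, which tested 26 members, 2 were higher on both J arrays (background 12.9%) and 2 lower (background 12.8%). Of the 26, 9 had differences above 0. With median centring 9 were higher (background 12.3%) and 2 lower (background 13.1%), against 6 and 4 in the main fit. With 3 arrays, where groups part more easily, these counts ran from 10 to 20 (background 29.3% to 36.1%) and from 9 to 14 (background 28.8% to 35.2%), and 20 to 24 differences lay above 0.

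The semaphorin median was 0.26 and 0.085 with pseudocounts of 1 and 100, 0.03 without a filter, −0.19 with the filter at the median and 0.44 with the brightest probe set a gene. The plexin and neuropilin median was −0.14 under each of the last 2 settings, and the ephrin median 0.13 with the brightest and 0.10 with the mean of a gene's probe sets. The Eph receptor median was 0.21 without a filter and −0.54 with the filter at the median, and that of the netrin family 0.26 and 0.36. The causes were not tested. With each array left out the medians ran from 0.14 to 0.35 for semaphorins, −0.27 to −0.026 for plexins and neuropilins, −0.043 to 0.22 for ephrins, −0.54 to 0.55 for Eph receptors, −1.24 to −0.12 for Robo3 and 0.30 to 1.23 for the netrin family. Leaving out 1 array turned the sign of 24 of the 42 tested members. Of those whose array values are given these include Epha4 (−1.20 to 0.10), Ephb6 (−0.13 to 0.35), Nrp1 (−0.27 to 0.15), Ntn1 (−0.21 to 0.95) and Sema4f (−0.62 to 0.23) at their brightest probe sets. The same held at both probe sets of Plxnb2 (−0.89 to 0.38 at the brighter, −0.70 to 1.19 at the dimmer) and of Sema4a (−0.89 to 0.48 and −0.33 to 0.41), and at the middle one of Sema4b (−1.38 to 0.12). The difference ran from 0.47 to 1.63 for Sema5a, 0.42 to 1.33 for the brighter Sema7a probe set, 0.34 to 1.62 for Plxna2, 0.78 to 1.35 for Epha5, 0.40 to 1.95 for Unc5c and −1.87 to −1.29 for Epha7. Of these, all but Plxna2 had groups that were apart, which all but fixes the sign with 1 array left out. Their unchanged sign is therefore no further result.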

Other observations

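Unc50, which carries the Unc5 prefix by name only and encodes a membrane protein of the Golgi, had signals of 962.0 and 3019 in J and 1569 and 3040 in NJ. Its difference was −0.39 ± 0.57 with overlapping groups, and the arrays fell by number format rather than by group, both 1a arrays being lower than the other 2.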
